A study of Simmondsia chinensis with 44 samples.

Results

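Late-stage developing jojoba seed was compared with mid-stage developing seed across all genes, using the 6 late and 6 mid libraries of a seed time course. These are 12 of the 44 libraries of the series, and they were taken by their labelled stage, not by any measured value. Jojoba (Simmondsia chinensis) is a desert shrub, and all libraries came from 1 germplasm line, PARL# 940. The time course also held 6 early-stage and 6 dry-seed libraries, and a second set came from dissected mid-stage seed, with 5 libraries each for the cotyledon, the embryonic axis, the seed coat and the undivided seed. The labels give no age in days for a stage, no interval between stages, and do not say whether libraries of a stage came from separate plants or seeds. All p-values therefore rest on library-to-library spread alone, part or all of which may be technical.

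As background, a maturing seed first fills its embryo with reserves and then prepares it to survive drying. Jojoba stores liquid wax esters, mainly in the cotyledons, where most oilseeds store triacylglycerol. The seed coat is tissue of the mother plant that encloses the embryo. In bulk libraries such as these, fewer cells of a tissue and less RNA per cell cannot be told apart.

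Total counts were 10298519 to 16014089 in mid seed and 10516604 to 15932445 in late seed, so the stages overlapped in depth. The table held 23491 genes, of which 18440 passed the filter on low counts and were tested. Levels are in CPM, that is counts put on a common library total after adjustment by TMM, a method that aligns libraries on the bulk of their genes. No gene name or function accompanies the identifiers in the files. Genes are therefore described by groups, and only 4 are given by identifier. Libraries of the same stage were closely alike. Pearson's r of log2(CPM + 0.5) across genes was 0.955 to 0.985 within mid seed, 0.968 to 0.983 within late seed and 0.833 to 0.899 between the stages. These are descriptions over the same 18440 genes, which are not independent of each other.

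More than 1 in 2 of the genes tested changed between the stages. By edgeR's quasi-likelihood test at a Benjamini-Hochberg adjusted p under 0.05, 10532 genes or 57.1% differed, 27.3% higher and 29.8% lower in late seed. Most of these changes were small. At a fitted change of at least 2-fold, 1904 genes (10.3% of those tested) were higher and 2625 (14.2%) lower, and at 4-fold 617 (3.35%) were higher and 965 (5.23%) lower. Falling genes were the more numerous up to 16-fold, where 143 were higher and 185 lower. Beyond that the numbers were 48 higher and 44 lower at 64-fold and 18 higher and 7 lower at 256-fold. The fitted size of a gene with no count in 1 stage depends on the small constant added in the fit, and 8 of these 18 had no count in mid seed and 1 of these 7 none in late seed. In 12 of the 18 no mid library had more than 3 counts, and in 5 of the 7 no late library did. At 64-fold this held for 22 of the 48 and 22 of the 44.

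**Figure D1:**
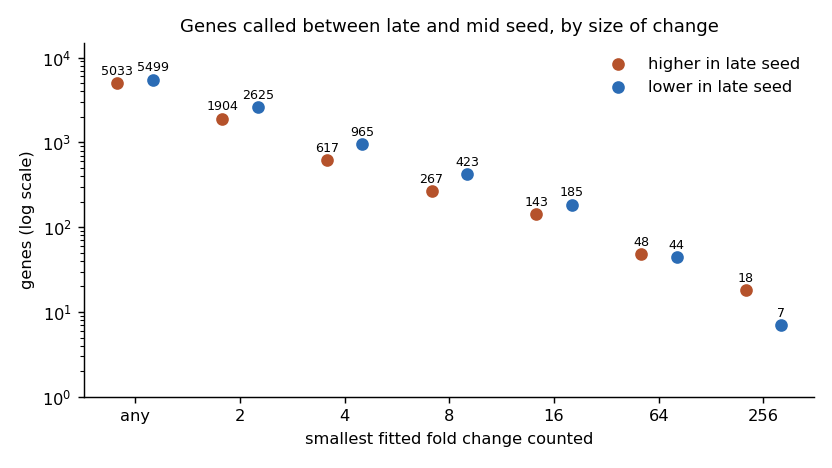
Number of genes called between late and mid seed (points, with the number above each; y axis, log scale) by the smallest fitted fold change counted (x axis), with genes higher in late seed in orange and lower in blue. Lower genes outnumber higher ones at every threshold up to 16-fold (185 against 143), and at 256-fold the numbers are 18 higher, 8 of them with no count in mid seed, and 7 lower.

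The 2 stages were also set apart library by library. In 3229 genes (17.5% of those tested) every late library lay above every mid library, and in 3607 genes (19.6%) every late library lay below. Of the genes higher at least 4-fold, 525 of 617 had groups that did not overlap, and of those lower at least 4-fold, 824 of 965. Falls were commonest among weakly expressed genes. Of 1310 genes under 1 CPM on average over both stages, 27.6% were lower and 10.4% higher at least 2-fold. Of the 72 genes at 1000 CPM or more the order was the other way, with 23 higher (31.9%) and 13 lower (18.1%).

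The transcripts gained by late seed sat in few genes, and the transcripts lost were spread over many. Summed over genes, mean levels rose by 378584 CPM and fell by 210320 CPM. The sums differ because TMM aligns the bulk of the genes and leaves the most abundant ones free. Of the gain, 25% came from 4 genes and 50% from 38. Of the loss, 25% came from 36 genes and 50% from 283. The 10 genes with the largest gain took 35.9% of it, and the 10 with the largest loss took 15.2%.

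**Figure D2:**
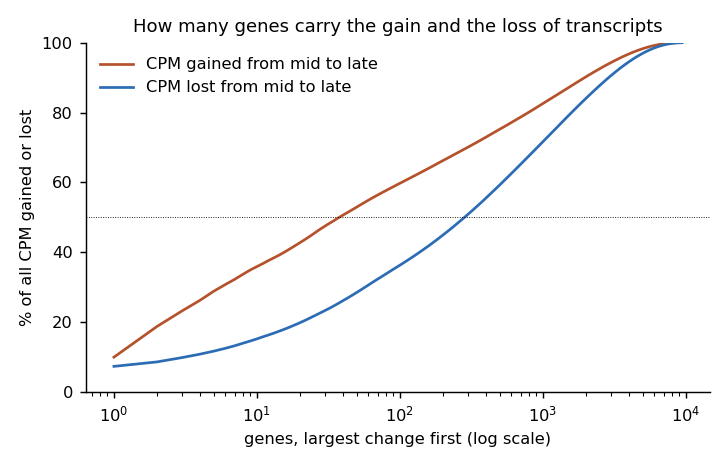
Percent of all CPM gained (orange) or lost (blue) between the mean of the 6 mid and the mean of the 6 late libraries (y axis), against the number of genes ranked by size of change (x axis, log scale). The gain reaches 50% after 38 genes and the loss after 283.

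The late seed accordingly concentrated its transcripts. The number of genes needed to hold 50% of a library's counts was 1128 to 1362 in mid seed and 661 to 840 in late seed, with means of 1252 ± 92 and 761 ± 74 (SD, n = 6). No late library reached the lowest mid library. The 10 most counted genes took 6.98% ± 0.64 of counts in mid seed and 15.2% ± 1.9 in late seed (SD, n = 6). Genes detected at 1 CPM or more numbered 16913 to 17252 in mid libraries and 16478 to 16617 in late libraries. Each of these 3 measures, and the share of the 100 most counted genes, differed with p = 0.00216 by a two-sided exact permutation test, the smallest value that 6 libraries against 6 can give (adjusted p = 0.00216 over the 4 measures). Measured after every library was thinned to the smallest total, the number of genes detected dropped by 515 genes from mid to late seed on average, and without thinning it dropped by 504. Thinning evened out totals, not the share of the most counted genes, and what part that share has in the drop was not tested.

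The 39 genes that gained at least 1000 CPM carried much of this change. Together they took 4.97% ± 0.90 of counts in mid seed and 21.6% ± 1.3 in late seed (SD, n = 6), and 0.769% ± 0.112 in early seed and 12.9% ± 2.3 in dry seed. They were chosen by their gain, so their mid and late shares are a description. The dissected tissues are separate libraries, and there these genes were embryo genes. Of the 39, 34 were lower in seed coat than in embryo (the mean of cotyledon and axis) and 1 was higher, where 33.2% of all genes tested in the dissection were lower and 31.6% higher in coat. Among all 72 genes at a mean of 1000 CPM or more, 51.4% were lower and 30.6% higher. The median seed-coat-minus-embryo difference was -8.28 on the log2 scale in the 39 genes and -0.475 in the 72. In the 14 genes that lost at least 1000 CPM the balance was the other way, with 9 higher and 3 lower in coat. These 14 took 5.75% ± 0.52 of counts in mid seed and 1.55% ± 0.19 in late seed (SD, n = 6).

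Abundant genes also differed in their side of the embryo. Of the 342 genes that lost at least 100 CPM, 230 (67.3%) were higher in cotyledon than in axis and 35 (10.2%) were lower. Across all genes 22.9% were higher and 20.5% lower in cotyledon, but abundant genes lean to cotyledon anyway. Among the 1985 tested genes at a mean of 100 CPM or more, 48.7% were higher and 12% lower. The 384 genes that gained at least 100 CPM stood on the other side of that level, with 40.6% higher and 21.4% lower in cotyledon. Without late libraries 4 and 6, the percentages higher in cotyledon were 64.8% for losses and 43.4% for gains.

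Among single genes, Sc03g0002590 gained the most CPM. It stood at 4343 CPM in the lowest mid library, 5344 at the median and 8397 in the highest, and at 15126, 49255 and 65076 CPM in late seed. The late libraries all lay above the mid libraries but spread widely among themselves, with libraries 4 and 6 lowest at 15126 and 21974 CPM. The log2 change was 2.93 ± 0.50 (SE; edgeR adjusted p = 2.56e-05), and 3.29 without those libraries. In early and dry seed the gene was low, at 9.06 to 97.4 and 66.4 to 324 CPM.

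In the dissected mid-stage seed, Sc03g0002590 was an embryo transcript. Its level was 81126 ± 18697 CPM in cotyledon and 127708 ± 21385 CPM in axis, and 87.2 ± 76.2 CPM in seed coat (SD, n = 5). The seed-coat-minus-embryo difference was -10.19 ± 0.67 on the log2 scale (SE; edgeR adjusted p = 4.25e-11). Cotyledon and axis were not told apart, at a difference of -0.65 ± 0.46 (SE; edgeR adjusted p = 0.265).

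Sc16g0007280 gained nearly as much, with less spread. It stood at 5139, 7179 and 8404 CPM (lowest, median and highest) in mid seed and at 27721, 41713 and 46687 CPM in late seed. The log2 change was 2.51 ± 0.45 (SE; edgeR adjusted p = 4.32e-05), with every late library above every mid library. Dissected cotyledon held 65291 ± 14264 CPM, axis 23604 ± 5914 CPM and seed coat 35.9 ± 20.8 CPM (SD, n = 5). Here cotyledon was higher than axis, by 1.47 ± 0.40 on the log2 scale (SE; edgeR adjusted p = 0.00524). Dry seed kept 626 to 3346 CPM of it, above the 1.21 to 25.5 CPM of early seed.

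Sc18g0006960 lost the most CPM. Its mid libraries ranged from 15105 to 24385 CPM with a median of 21916, and its late libraries from 4628 to 7221 CPM with a median of 5416. The groups were far apart and the late libraries close together. The log2 change was -1.90 ± 0.26 (SE; edgeR adjusted p = 3.68e-06). In the dissection it was a seed-coat transcript, at 91952 ± 3903 CPM in coat and 4471 ± 2961 in cotyledon (SD, n = 5), with a seed-coat-minus-embryo difference of 5.15 ± 0.47 on the log2 scale (SE; edgeR adjusted p = 5.81e-09). Early seed stood at 29333 to 51708 CPM, and no dry-seed library held a count of it. Levels in the 5 cotyledon libraries spread from 1525 to 8875 CPM, and in the 5 axis libraries from 177 to 3497 CPM. Cotyledon was higher than axis, by 1.58 ± 0.53 on the log2 scale (SE; edgeR adjusted p = 0.0208).

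Sc02g0007870 was also highest in seed coat. It went from 1665, 2945 and 6545 CPM (lowest, median and highest) in mid seed to 613, 743 and 967 CPM in late seed, with no overlap. The log2 change was -2.16 ± 0.25 (SE; edgeR adjusted p = 1.11e-07). Seed coat held 14585 ± 1811 CPM, cotyledon 1647 ± 925 CPM and axis 763 ± 679 CPM (SD, n = 5), a seed-coat-minus-embryo difference of 3.70 ± 0.47 on the log2 scale (SE; edgeR adjusted p = 6.87e-07). Cotyledon and axis were not told apart, at a difference of 1.11 ± 0.55 (SE; edgeR adjusted p = 0.112). Early seed stood at 3656 to 6139 CPM, and all 6 dry-seed libraries together held 3 counts. Only Sc18g0006960 and a gene whose groups overlapped lost more CPM.

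**Figure D3:**
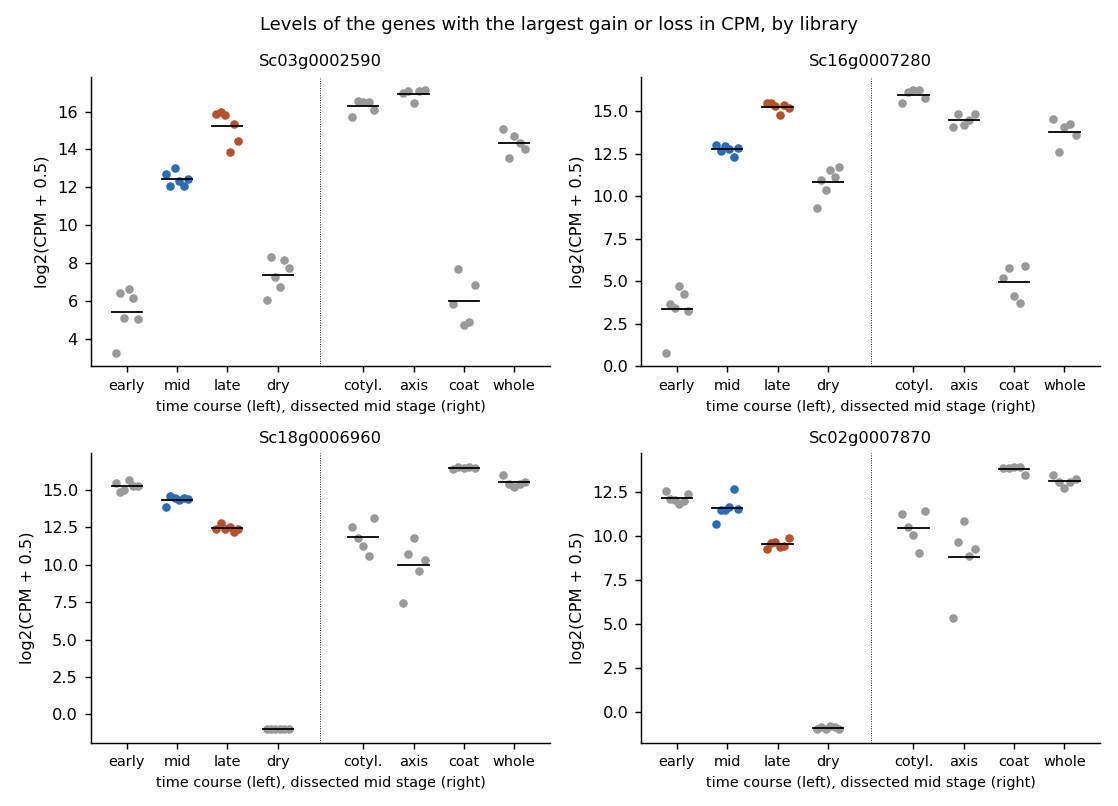
Levels of 4 genes as log2(CPM + 0.5) (y axis) in every library (points; lines are means) of the time course, left of the dotted line, and of the dissected mid-stage tissues, right of it; the tables were normalized separately. Mid libraries are blue and late ones orange. Sc03g0002590 and Sc16g0007280 rise to late seed and are low in seed coat, and Sc18g0006960 and Sc02g0007870 fall and are highest in seed coat.

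Across all genes, the larger rises lay mostly on the embryo side, and the largest falls leaned to it as well, less strongly. Of the 563 genes higher at least 4-fold in late seed that were tested in the dissection, 338 (60%) were lower and 93 (16.5%) higher in seed coat than in embryo. At 16-fold, 99 of 124 (79.8%) were lower and 8 higher. Of the 839 genes that fell at least 4-fold and were tested there, 327 (39%) were lower and 273 (32.5%) higher in coat. At 16-fold, 77 of 150 falling genes (51.3%) were lower and 29 (19.3%) higher. In genes not called between mid and late seed the sides were even, at 31.3% lower and 31.8% higher in coat. At the wider class of at least 2-fold, of 2438 genes lower in late seed 875 (35.9%) were higher and 839 (34.4%) lower in coat. At a seed-coat-to-embryo difference of 4-fold or more, 342 (14.0%) of these were coat genes and 321 (13.2%) embryo genes, against 4.68% and 7.33% of genes not called and 5.44% and 9.2% of all genes tested. Falling genes thus included more of both kinds of strongly localized genes than genes not called did. Of 1816 genes higher at least 2-fold, 71 (3.91%) were such coat genes and 442 (24.3%) such embryo genes.

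Turned around, 932 genes tested in both sets of libraries were at least 4-fold higher in coat than in embryo. Of these, 342 (36.7%) fell and 71 (7.62%) rose at least 2-fold in late seed, where 14.2% and 10.3% of all genes did. Of 1477 genes tested in both that were at least 4-fold higher in embryo, 442 (29.9%) rose and 321 (21.7%) fell. Changes were not limited to localized genes. Among 12053 genes within 2-fold between coat and embryo, 898 (7.45%) rose and 1100 (9.13%) fell at least 2-fold.

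Cotyledon and axis did not part the rising from the falling genes at moderate sizes. Of 1816 genes higher at least 2-fold in late seed, 454 (25%) were higher and 400 (22%) lower in cotyledon than in axis, and of 2438 lower genes 649 (26.6%) and 579 (23.7%). At 16-fold the rising genes leaned to the axis, with 51 of 124 (41.1%) higher in axis and 17 (13.7%) higher in cotyledon, where 20.5% and 22.9% of all genes were. Late libraries 4 and 6 held the largest shares of axis-preferred genes (1.12% and 0.582% of counts). Without them 36 of 98 (36.7%) were higher in axis and 17 (17.3%) in cotyledon. The falling genes at 16-fold leaned to the cotyledon, with 52 of 150 (34.7%) higher there and 34 (22.7%) higher in axis. No test was made of these leanings.

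Lists were made of genes at least 4-fold higher in 1 dissected tissue than in each of the other 2. In every late library, coat-preferred genes held a smaller share of counts than in any mid library. A share is relative to the rest of the library, so its drop does not by itself show a loss in amount. The coat-preferred list took 4.56% to 7.95% of counts in mid libraries (median 6.43%) and 1.99% to 2.44% in late libraries (median 2.19%), with no overlap. Of its 574 members tested, 308 (53.7%) fell and 56 (9.76%) rose, where 29.8% of all genes fell and 27.3% rose. At least 4-fold, 103 of the 574 fell and 8 rose, where 5.23% of all genes fell and 3.35% rose. The median log2 change of the list was -0.80, against -0.02 over all genes. Its mean share dropped by 4.29 percentage points from mid to late seed, and dropped by 2.53 without its most counted member, Sc18g0006960. The axis-preferred list, with 139 (38.9%) falling and 92 (25.8%) rising of 357, took 0.238% to 0.315% of counts in mid libraries. In late libraries it took 0.290% to 1.12%, with libraries 4 and 6 highest at 1.12% and 0.582%, so the groups overlapped. The cotyledon-preferred list had 74 (34.9%) falling and 67 (31.6%) rising of 212. Counted at any size of change it lay near the shares of all genes, but not at larger sizes. At least 4-fold, 48 of the 212 fell and 29 rose, and of the 357 axis-preferred genes 75 fell and 58 rose. Falls of that size were thus not particular to the coat-preferred list, in which rises were fewest. The cotyledon-preferred list took 1.32% to 2.14% in mid seed and 0.900% to 3.25% in late seed, a wide and overlapping range. Its mean was 0.29 percentage points higher in late seed, and it dropped by 0.31 once its most counted member was left out. Shares of counts cover all members of a list, 619 for coat, 541 for axis and 231 for cotyledon. Numbers of rising and falling genes cover only the members tested in the time course. The shares of these lists depend on the fold that defines them. With lists at 2-fold the late-minus-mid differences were 3.74 percentage points for cotyledon, 2.34 for axis and -5.84 for coat.

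**Figure D4:**
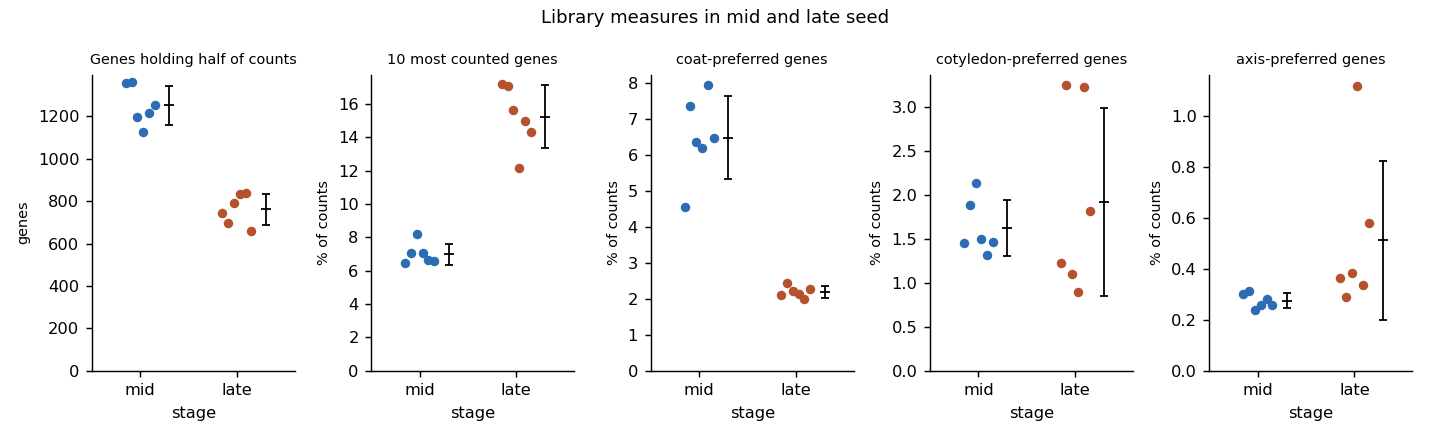
Library measures (y axes, each starting at 0) in the 6 mid (blue) and 6 late (orange) libraries, with mean and SD beside the points: number of genes that hold 50% of counts, and percent of counts taken by the 10 genes with most counts and by the coat-, cotyledon- and axis-preferred lists. The first 3 panels show no overlap between stages (coat-preferred genes at 4.56% to 7.95% against 1.99% to 2.44%), and the last 2 overlap.

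The dry and early stages share no library with late or mid seed and gave an outside view of the same genes. Genes that rose into late seed were mostly higher in dry than in early seed. Of the 617 that rose at least 4-fold, 430 (69.7%) were higher and 112 (18.2%) lower in dry seed. Of the 965 that fell at least 4-fold, 803 (83.2%) were lower and 75 (7.77%) higher. Among all genes 40.6% were higher and 42.7% lower in dry than in early seed. At 16-fold the shares were 86.7% higher among rising genes and 91.9% lower among falling genes.

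The sets that moved in the same and in opposite directions were then read in the dissection, where 33.2% of all genes were lower and 31.6% higher in coat. The 430 genes that rose at least 4-fold and stood higher in dry than in early seed were mostly embryo genes, with 267 of 387 (69%) lower and 44 (11.4%) higher in coat. The 112 that rose at least 4-fold but stood lower in dry than in early seed had 33 of 107 (30.8%) lower and 41 (38.3%) higher in coat, near the shares of all genes. Their share of counts was 0.204% ± 0.020 in mid seed and 0.870% ± 0.104 in late seed, and 0.302% ± 0.034 in early seed and 0.0592% ± 0.0133 in dry seed (SD, n = 6). The 75 genes that fell at least 4-fold into late seed but were higher in dry than in early seed had 29 of 54 (53.7%) lower and 8 (14.8%) higher in coat. No test was made of the differences between these sets.

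**Figure D5:**
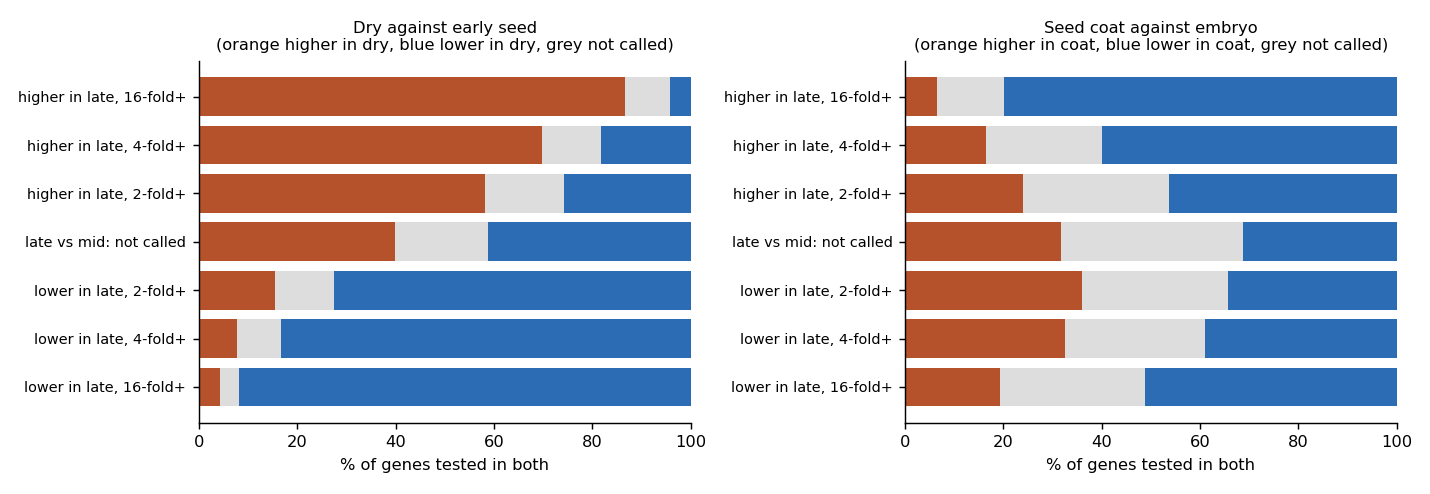
Percent of genes (x axis) that were higher (orange), lower (blue) or not called (grey) in dry against early seed (left) and in seed coat against embryo (right), for classes of genes by their change from mid to late seed (y axis). Genes higher 16-fold or more in late seed were 86.7% higher in dry seed and 79.8% lower in coat.

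The step from mid to late differed from the step before it in many genes. By a contrast of the late-minus-mid change against the mid-minus-early change in the same edgeR fit, 8301 of 18440 genes (45%) differed, 3617 (19.6%) with the more positive change in the later step and 4684 (25.4%) with the more negative one. The steps share the mid libraries, and their durations are not given. Side by side, genes that rose at least 4-fold into late seed had median log2 changes of 0.26 from early to mid, 2.81 from mid to late and -0.50 from late to dry. Genes that fell at least 4-fold had medians of -0.11, -2.82 and -1.55. The middle value of each series is the one that chose the genes. Median levels of the rising genes on the log2(CPM + 0.5) scale were 0.67 in early, 1.16 in mid, 4.03 in late and 3.13 in dry seed. Those of the falling genes were 3.24, 3.09, 0.36 and -0.47.

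A small set of genes went from the counting floor to presence or back. In 34 genes that passed the test, no mid library had more than 3 counts and late seed reached a mean of at least 1 CPM. Of these, 8 had no count in any mid library and 17 reached 1 CPM in all 6 late libraries. None of the 34 reached a mean of 1 CPM in early seed, and 23 did so in dry seed. Of the 19 that were tested in the dissection, 13 reached 1 CPM in axis, 11 in cotyledon and 3 in seed coat. The opposite set held 75 genes, of which 24 reached 1 CPM in all 6 mid libraries. Of the 75, 53 reached a mean of 1 CPM in early seed and 8 in dry seed. The filter on low counts took in all 4 stages. Some genes of both sets may therefore have been tested only because early or dry libraries held counts. Testing in the dissection likewise needed counts in some tissue. These numbers are thus partly set by the filter and are a description.

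Spread between late libraries was greatest in the genes that rose. The median SD of log2(CPM + 0.5) over the 6 libraries was 0.25 in mid and 0.24 in late seed across all genes. In the 617 genes that rose at least 4-fold it was 0.37 in mid and 0.54 in late seed, and in the 965 that fell as much it was 0.46 and 0.34. An SD over 1 in late seed was found in 307 genes (1.66%) of all tested and in 111 (18%) of the 617. Among the 307, late library 4 was the highest in 90 and library 6 in 78, and each other late library in 23 to 51.

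Each library was also read against genes chosen without it. Genes called at least 2-fold higher or lower were taken from the fit that left the library out, and its own level was set against the mean of the other stage, whose libraries had helped to choose them. In late libraries 97.1% to 98.8% of the higher genes and 98.6% to 99.6% of the lower genes lay on the same side. In mid libraries these shares were 97.3% to 99.8% and 97.2% to 99.3%. The median distance was largest in late library 4, at 1.57 for higher and -1.57 for lower genes on the log2 scale, and 1.28 to 1.44 and -1.40 to -1.29 in the other late libraries. Leaving out late libraries 4 and 6 together left 1796 genes higher and 2590 lower at least 2-fold.

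Genes that changed lay near each other in the gene list more often than the background rate. Identifiers are numbered in order within 26 numbered prefixes, and neighbours were taken as consecutive identifiers of 1 prefix that were both tested, in 15335 pairs. After a gene that rose at least 4-fold, the next gene did so in 72 of 492 pairs (14.6%), where 3.13% of all next genes did. After a gene that fell at least 4-fold, the next did so in 73 of 771 pairs (9.47%), against 5.03%. The longest unbroken runs held 5 rising and 6 falling genes. Consecutive genes may be near-identical copies that share reads, so such pairs are not independent. By prefix the share of genes rising at least 2-fold ran from 7.96% to 13.6%, and of those falling from 9.87% to 17.4%.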

How the data were processed

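The authors deposited a table of raw, whole-number counts for the 24 time-course libraries and another for the 20 libraries of the dissection. Per the labels, RNA came from a hot-borate extraction and a stranded mRNA kit. Trimmomatic, STAR and DESeq2 are named per the submitters' processing notes. Not given in the sources used here are tool versions, the counting step, genome build, annotation and use of strand, so near-identical copies and antisense genes may share reads. Normalized tables of the same libraries were not used.

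Columns were matched to libraries by the names in the labels. All pairs of libraries of 1 stage differed beyond sampling noise, with a chi-square of at least 15.3 per degree of freedom in late and 20.0 in mid seed. Counts were tested in R 4.3.3 by edgeR 4.0.16, with filterByExpr, TMM, estimateDisp, glmQLFit and glmQLFTest, 1 fit per table over its 4 groups, a Benjamini-Hochberg threshold of 0.05, and SE taken as the log2 change over the root of F. On counts simulated for late minus mid over 17536 genes, 76 of 100 genes changed 2-fold and 94 of 100 changed 4-fold were recovered, with 9 false calls. Only these genes were changed, as many up as down, in a fit of mid and late libraries alone. The simulation therefore says nothing of error under changes as broad and uneven as those of the data. DESeq2 1.42.0, other scalings, no filter, a replicate block and left-out libraries were alternatives. Python 3.11.15 with numpy 2.4.6, pandas 2.3.3, scipy 1.17.1 and matplotlib 3.10.9 made the tables and plots. Named genes are the 2 with the largest gain and the 2 with the largest loss in mean CPM, among genes called with groups that do not overlap. The comparison, lists and thresholds were chosen with earlier results of these data known. The planned lists of wax, storage and cell-cycle genes need names and were not used. The counting floor was 3 counts in a library and covers counting error only.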

Additional observations from a re-analysis of the deposited data

Results flagged for a closer look

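In 46 sets of values, 4 held a library farther from the rest than Dixon's test allows, where chance gives about 1 in 20. The 10 most counted genes took 8.19% of counts in mid library 3, against 6.44% to 7.04% in the other mid libraries. Axis-preferred genes took 1.12% of counts in late library 4, against 0.290% to 0.582% in the other late libraries. Sc02g0007870 stood at 6545 CPM in mid library 5, against 1665 to 3290 CPM in the other mid libraries. The same gene stood at 11435 CPM in seed-coat library 5, against 14936 to 15871 CPM in the other coat libraries. The causes were not tested.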

How the results depend on the processing

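The number of genes that differed ran from 9650 without late libraries 4 and 6 to 11176 with DESeq2, and from 10036 to 10365 with 1 library left out. At least 2-fold, 1824 to 1964 were higher and 2543 to 2725 lower with 1 library left out. No call of a named gene was lost. With the replicate block 10459 genes differed. Same-numbered mid and late libraries deviated together weakly or not at all (r -0.11 to 0.06 over 6 pairs, none best with its own number). No pairing by number was seen, but so few pairs cannot exclude one, and the labels do not say. With classes at 4-fold in place of 2-fold, counts fell with the class size. For dry against early seed they were 430 higher and 112 lower among rising genes and 75 and 803 among falling genes. In the same order they were 93, 338, 273 and 327 for coat against embryo, and 140, 157, 217 and 208 for cotyledon against axis. Falling genes were more often higher than lower in coat at 2-fold (875 against 839), but not at 4-fold. Rising genes were more often higher than lower in cotyledon at 2-fold (454 against 400), but not at 4-fold. With tissue lists at 2-fold, late minus mid shares were 3.74 (cotyledon), 2.34 (axis) and -5.84 (coat) percentage points, against 0.29, 0.24 and -4.29. The coat value was -2.53 without its most counted member, Sc18g0006960. With 1 library left out the ranges were 0.028 to 0.498, 0.116 to 0.281 and -4.68 to -4.00. The cause was not tested. Of the genes under 1 CPM, 59.8% were not called, and calls at another depth were not tested.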

Other observations

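Whole-seed libraries of the dissection are labelled mid stage, as are the mid libraries of the time course. On a line through the mean mid seed (0) and the mean late seed (1) over 17872 genes, the 5 whole-seed libraries lay at 0.333 to 0.470, cotyledon at 0.463 to 0.622, axis at 0.521 to 0.589 and seed coat at 0.271 to 0.383. Single mid libraries, each set against means without it, lay at -0.041 to 0.070 and late libraries at 0.926 to 1.11. Sc03g0002590 stood at 22298 ± 8841 CPM in whole seed (SD, n = 5), against 5733 ± 1558 CPM in mid and 43589 ± 21095 CPM in late seed (SD, n = 6). Sc16g0007280 also lay between, at a mean of 15747 CPM, against 7085 in mid and 40331 in late seed. The named falling genes lay above mid seed instead. Sc18g0006960 averaged 47314 CPM in whole seed, against 39766 in early, 21147 in mid and 5656 in late seed. Sc02g0007870 averaged 9095 CPM, against 4678, 3383 and 758. The tables were normalized separately, so these levels are set across tables and were not tested.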
